A study of Mus musculus with 8 samples.

Results

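The genes described here are nucleolar factors that make ribosomes: subunits of RNA polymerase I, proteins that guide and carry out the modification and cutting of the ribosomal RNA precursor, assembly factors of the ribosomal subunits, and Myc, the transcription factor that drives many of them. Members were taken by name from GENCODE M21 on GRCm38. They are the protein-coding genes whose symbols start with Polr1, or with Utp, Rrp or Nop and a digit, and 11 further genes named singly. This gave 42 of the 48709 gene identifiers counted, and all 42 passed the filter on low counts. Cells of C57Bl/6J mice that lacked lineage markers and carried Sca1 and cKit, a population of stem and progenitor cells (HSPCs), were seeded at 10000 per well. The culture lasted 7 days, without serum, on 2 cytokines: stem cell factor (100 ng/ml) and the ligand of Flt3 (2 ng/ml). The control group had no further addition, and the other group received 100 µM malonyl-CoA, the carbon donor of fatty acid synthesis. Each group held 4 libraries, numbered 1, 3, 4 and 5, made from the whole progeny of a culture. The labels used here give neither the age of the mice nor what a library number marks (an animal, a pool or a culture), so p-values measure the spread between these samples, which may be technical. Series of 4 values follow the library order 1, 3, 4, 5.

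Ribosomes are assembled in the nucleolus. RNA polymerase I transcribes a long ribosomal RNA precursor, small nucleolar ribonucleoproteins (snoRNPs) modify it, the small subunit processome folds and cuts it, and a further set of factors builds the large subunit. In blood progenitors this work rises with growth and division and is under the control of MYC.

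Gene counts ranged from 17492085 to 22079844 per library, and the members were covered by 236 to 44945 reads per gene and library. Together they took 0.487%, 0.517%, 0.637% and 0.694% of gene counts in control, and 0.554%, 0.559%, 0.715% and 0.579% with malonyl-CoA. The ranges of the groups overlapped. Malonyl-CoA 4 stood apart in reads that the counter placed in no annotated feature. These were 2.94% of tallied reads there, against 1.11% to 1.56% in the 7 other libraries. Where in the genome they lay was not tested. Control 5 stood apart in base composition: across genes, Spearman's rho between the deviation of the log2 level and the GC share of the transcript was -0.75 there, against -0.10 to 0.52 in the others (a description across genes, which are not independent). All 10 stem and progenitor markers were detected, among them Kit, which encodes cKit, at 204 to 320 CPM (read counts scaled to a common library size with TMM factors). Ly6a, which encodes Sca1, was at 24.7 to 69.2 CPM in control and 29.0 to 110 with malonyl-CoA (log2 fold change 0.94). Cd34 and Hlf (log2 fold changes -0.40 and -0.55) were lower in every malonyl-CoA library than in any control, as were 2.93% of all tested genes. Markers of maturing cells were abundant as well, with 12 granulocyte genes summing to between 13742 and 21565 CPM in the 8 libraries. Summed mast cell and basophil markers (9 genes) were at 927 to 1115 CPM in control and 766 to 877 with malonyl-CoA. Summed erythroid markers (8 genes) were at 29.8 to 31.9 and 24.2 to 29.3 CPM. These sums did not overlap between groups, the erythroid ones narrowly, while those of the other cell type lists did. How often sums of other gene sets separate was not tested. Of the tested mast cell and basophil markers 0 of 7 had a log2 fold change above 0, and of the erythroid markers 1 of 5 (Epor, 0.31). Of the tested granulocyte markers 0 of 12 had a log2 fold change above 0 (median -0.50), of the lymphoid markers 0 of 4 (median -0.41) and of the dendritic cell markers 7 of 9 (median 0.61). Of the stem and progenitor markers 4 of 10 did (median -0.08), of the monocyte and macrophage markers 8 of 10 (median 0.32) and of the megakaryocyte markers 4 of 7 (median 0.01). No marker passed the test. The part of such shifts in the values below was not tested. In bulk RNA, fewer cells of a type and less RNA per cell cannot be told apart.

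The comparison asks whether malonyl-CoA altered the expression of the ribosome-making machinery. No member passed the gene test (edgeR's quasi-likelihood test, Benjamini-Hochberg adjustment over 12696 genes, threshold 0.05, 2-sided), and neither did any other gene, a background of 0%. The adjusted p of the members ran from 0.515 to 0.998. At an unadjusted p under 0.05, 0 of the 42 members were counted in edgeR, where 5.43% of all tested genes were higher and 4.10% lower. DESeq2 called 0 members at an adjusted p under 0.05 (0.591% of genes with an adjusted p) and counted 1 on the higher side at an unadjusted p under 0.05, Polr1a, where 3.93% of the 21783 genes in that fit were higher and 2.52% lower. In limma-voom the counts were 0 and 3, the latter Bop1, Polr1a and Rrp7a, all higher, against 5.73% of all tested genes higher and 3.91% lower. With the library number as a replicate block, edgeR called 0 members where 1.35% of all tested genes passed. At an unadjusted p under 0.05 that fit counted 10 members higher and 2 lower, where 15% of all tested genes were higher and 10.5% lower. Log2 fold changes, malonyl-CoA minus control, lay above 0 in 25 members (59.5%, against 53.4% of all tested genes), with a median of 0.08 against 0.02 over all genes. That median was 0.01 without control 3, 0.02 without malonyl-CoA 4, 0.03 without control 1, 0.05 without both libraries numbered 4, 0.14 without control 4 and 0.15 without control 5.

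**Figure D1:**
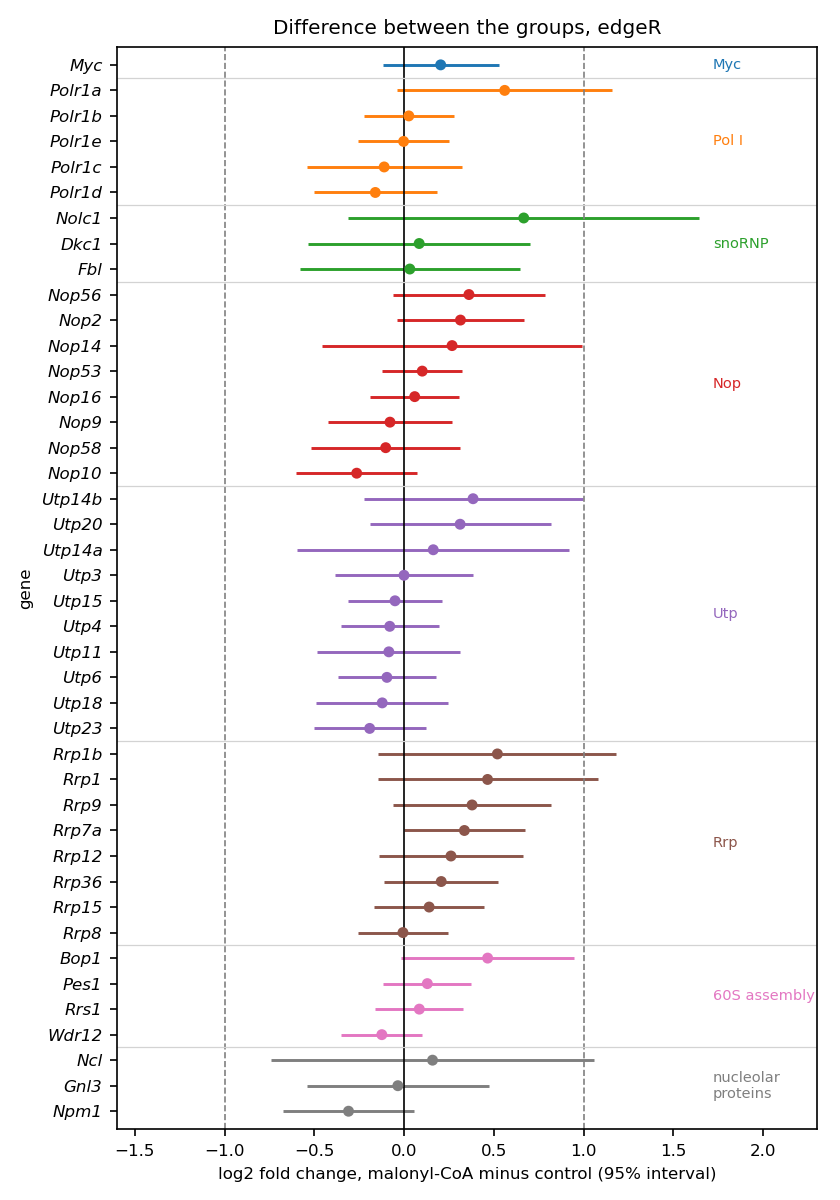
Log2 fold change of each of the 42 members, malonyl-CoA minus control, with its 95% interval from the edgeR fit (4 libraries per group), grouped by role. Dashed lines mark a 2-fold change either way. All 42 intervals include 0, and those of Polr1a, Rrp1, Rrp1b, Ncl and Nolc1 also reach past a 2-fold increase.

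The intervals show what these libraries could and could not resolve. In 37 of 42 members the 95% interval of the log2 fold change, taken gene by gene and not adjusted for the number of genes, lay within a 2-fold change in either direction, against 79.9% of all tested genes. The 5 exceptions were Polr1a, Rrp1, Rrp1b, Ncl and Nolc1, in which a doubling was not excluded by the interval. No member's interval reached a 2-fold decrease. The lowest bound was -0.74 for Ncl and the highest 1.64 for Nolc1.

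Myc (ENSMUSG00000022346, chromosome 15, 61985391 to 61990374) encodes the growth regulator that activates polymerase I transcription and many genes of ribosome assembly. It was at 205, 212, 252 and 236 CPM in control, and at 249, 221, 333 and 238 with malonyl-CoA. The groups overlapped, and malonyl-CoA 4 was the highest library. Means were 226 ± 21.6 and 260 ± 49.7 CPM (SD, n = 4 each), a log2 fold change of 0.20 (SE 0.14, 95% interval -0.12 to 0.53, edgeR adjusted p = 0.562). Leaving out 1 library at a time, the log2 fold change ranged from 0.05 without malonyl-CoA 4 to 0.28 without malonyl-CoA 3.

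Of 12 further genes of the MYC network, 0 passed the test, 8 had a log2 fold change above 0 and the median was 0.15. Mycn, a relative of Myc, was at 11.6, 16.0, 11.0 and 15.4 CPM in the controls and 16.3, 19.3, 17.9 and 16.4 with malonyl-CoA, a log2 difference of 0.37 (edgeR adjusted p = 0.515). Its groups did not overlap, as in 3.21% of all tested genes on the higher side. Mxd1, which competes with MYC for its partner MAX, had a log2 fold change of 0.34 and its relative Mxi1 one of -0.23, with an edgeR adjusted p of 0.515 each. In Mxi1 the 4 malonyl-CoA libraries (71.6 to 76.0 CPM) lay below all controls (81.7 to 99.3 CPM), as in 2.93% of tested genes on the lower side. Max itself averaged 161 ± 5.89 and 163 ± 18.8 CPM (SD, n = 4 each).

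MYC and MAX bind the E-box, whose core is CACGTG and reads alike on both strands. RefSeq start-site windows on GRCm38.p6, from 250 bases before to 50 after a gene's start, were at hand for 32 of the 42 members, and 7 of these (21.9%) held the motif: Nop2, Pes1, Rrp7a, Utp14b, Utp18, Utp20 and Utp4. Among tested genes with a window the share was 11.9%, and among all windows of that length 7.15%. A match is only a run of letters, and its absence from a window says nothing of the factor. The median log2 fold change was 0.31 in the 7 members with the motif and 0.06 in the 25 without, while over all tested genes it was 0.03 with and 0.03 without. After a correction for GC content and transcript length, the 7 members, in the order above, were at 0.15, 0.08, 0.07, 0.27, 0.03, 0.09 and -0.05. Whether members with and without the motif differ was not tested. Below are the 250 bases before the start of a Nop, an Rrp and a Utp member, 5′ to 3′ along the gene's strand with the E-box in capitals, to show how differently it is placed: it begins 60 bases before the start in Nop2, 208 in Rrp7a and 20 in Utp18.
Nop2, GRCm38.p6 chr6:125131633-125131882 (+ strand): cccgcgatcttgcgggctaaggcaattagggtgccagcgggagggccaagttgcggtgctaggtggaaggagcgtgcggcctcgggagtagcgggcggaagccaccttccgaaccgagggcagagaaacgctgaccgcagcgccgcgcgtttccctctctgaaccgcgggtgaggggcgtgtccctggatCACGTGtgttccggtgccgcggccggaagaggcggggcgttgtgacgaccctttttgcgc
Rrp7a, GRCm38.p6 chr15:83122802-83123051 (- strand): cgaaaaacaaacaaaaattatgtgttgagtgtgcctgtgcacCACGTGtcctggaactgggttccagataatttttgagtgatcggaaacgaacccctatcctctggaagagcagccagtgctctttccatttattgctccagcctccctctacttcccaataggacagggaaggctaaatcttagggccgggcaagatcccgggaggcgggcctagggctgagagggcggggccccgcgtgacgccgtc
Utp18, GRCm38.p6 chr11:93885767-93886016 (- strand): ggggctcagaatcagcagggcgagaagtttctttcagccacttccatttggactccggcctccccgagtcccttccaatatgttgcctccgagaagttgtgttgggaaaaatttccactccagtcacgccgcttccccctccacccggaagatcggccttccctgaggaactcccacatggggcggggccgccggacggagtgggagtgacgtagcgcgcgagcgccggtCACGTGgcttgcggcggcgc
These 3 members also differed in their values, with log2 fold changes of 0.31, 0.34 and -0.12, of which none passed the test.

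RNA polymerase I was represented by 5 subunit genes, of which 0 passed the test, 2 had a log2 fold change above 0 and 3 below. Polr1a (ENSMUSG00000049553, chromosome 6, 71909053 to 71984935) encodes the largest, catalytic subunit. It was at 33.8, 39.3, 75.1 and 41.0 CPM in control and at 63.9, 68.9, 93.8 and 52.4 with malonyl-CoA. In each group the library numbered 4 was the highest, and control 4 lay above 3 of the 4 malonyl-CoA libraries. Between groups the log2 fold change was 0.56 (SE 0.27, 95% interval -0.04 to 1.16, edgeR adjusted p = 0.515), 0.88 without control 4, 0.37 without malonyl-CoA 4 and 0.21 after a correction for GC content and transcript length. Its partner in the active centre, Polr1b, was level: 94.98, 82.3, 95.5 and 74.9 CPM in control and 90.4, 83.4, 91.1 and 89.0 with malonyl-CoA, a log2 fold change of 0.03 with a 95% interval of -0.22 to 0.28. Polr1e, a subunit particular to polymerase I, averaged 27.2 ± 1.14 and 27.1 ± 2.31 CPM (SD, n = 4 each), with an interval of -0.26 to 0.25. Polr1c and Polr1d, which RNA polymerase III shares, had log2 fold changes of -0.11 and -0.16 (edgeR adjusted p = 0.802 and 0.645). In both, malonyl-CoA 4 was the lowest of the 8 libraries, at 46.8 and 74.9 CPM, where for Polr1a it was the highest. Without malonyl-CoA 4, Polr1c was at 0.02. Of 12 other subunits and initiation factors of polymerase I, 0 passed, 7 had a log2 fold change above 0 and 5 below, with a median of 0.33. Of these 12, 6 were lowest in control 1 and highest in malonyl-CoA 4 like Polr1a, and 6 had other extremes. Ubtf, the factor that opens ribosomal gene chromatin, was among the former. It had 63.1, 73.1, 148 and 90.7 CPM in control and 109, 108, 222 and 90.6 with malonyl-CoA. Twistnb, with the list's smallest unadjusted p in edgeR, was highest in control 5 and lowest in malonyl-CoA 4 (log2 fold change -0.25, edgeR adjusted p = 0.515).

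Among the role groups, the 3 singly listed snoRNP genes (Nolc1, Dkc1 and Fbl) had the widest median control range, at 2.44-fold. The 11 other snoRNP proteins and assembly factors had one of 1.54-fold, as did all 42 members. Nolc1 (ENSMUSG00000015176, chromosome 19, 46075863 to 46085530) encodes a chaperone of snoRNPs that travels between the nucleolus and Cajal bodies. It was at 32.6, 46.7, 116 and 75.7 CPM in control and at 79.4, 83.2, 197 and 70.1 with malonyl-CoA. The groups overlapped widely: the controls alone spanned 3.56-fold and all libraries 6.06-fold, the widest range of any member. Its log2 fold change of 0.67 was the highest of the 42 (SE 0.44, 95% interval -0.31 to 1.64, edgeR adjusted p = 0.545), and it was 0.19 without malonyl-CoA 4 and 1.06 without control 4.

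Dkc1 encodes dyskerin, the pseudouridine synthase of the H/ACA snoRNPs. Its CPM were 91.4, 111, 185 and 164 in control and 119, 120, 224 and 123 with malonyl-CoA, so that controls 4 and 5 stood above 3 malonyl-CoA libraries. A log2 fold change of 0.08 turned to -0.20 without malonyl-CoA 4. Fbl encodes fibrillarin, the methyltransferase of the box C/D snoRNPs, and was at 24.0, 19.7, 21.1 and 48.1 CPM in control and 29.8, 25.4, 26.6 and 34.0 with malonyl-CoA. Its values carry a further limit, since 73.0% of the 50-base windows of its transcript also occurred in other annotated genes, pseudogenes among them; reads without a unique position were not assigned to genes. Between groups Fbl differed by a log2 fold change of 0.03, and 0.42 without control 5. Of 11 other snoRNP proteins and assembly factors 0 passed, with a median of -0.08, and Ruvbl2, an ATPase of snoRNP assembly, averaged 149 ± 36.4 and 191 ± 9.01 CPM (SD, n = 4 each).

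Members named Nop act at several steps, and 5 of 8 had a log2 fold change above 0 (median 0.08, 0 past the test). Nop56, a core protein of the box C/D snoRNP, was at 65.4, 72.6, 97.2 and 75.5 CPM in control and 90.6, 87.9, 138 and 82.7 with malonyl-CoA. Control 4 lay above 3 of the malonyl-CoA libraries, and the groups differed by 0.36 on the log2 scale (SE 0.19; adjusted p = 0.515 in edgeR). Its partner in the same particle, Nop58, was at 182, 196, 218 and 329 CPM in control and 202, 197, 249 and 213 with malonyl-CoA. It peaked in control 5, not in malonyl-CoA 4, and its log2 fold change was -0.10, or 0.12 without control 5. Nop2, a methyltransferase of ribosomal RNA, had 61.1, 66.3, 87.4 and 57.1 CPM in control and 80.5, 80.5, 102 and 75.3 with malonyl-CoA, where control 4 alone kept the groups from separating. Nop2 differed by 0.31 on the log2 scale (SE 0.16; adjusted p = 0.515 in edgeR). On the lower side Nop10, a small H/ACA protein, was at 174, 170, 159 and 208 CPM in control and 156, 130, 122 and 185 with malonyl-CoA. Of its malonyl-CoA libraries 3 lay below every control, and the groups differed by -0.26 on the log2 scale (SE 0.15; adjusted p = 0.524 in edgeR). Nop14, a small subunit factor, turned from 0.27 to -0.01 without malonyl-CoA 4, and Nop9, which binds the ribosomal RNA precursor, from -0.08 to 0.02. Nop53, of large subunit assembly, averaged 241 ± 16.7 and 259 ± 14.0 CPM (SD, n = 4 each), a log2 fold change of 0.10. Nop16 had a log2 fold change of 0.06.

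The Utp proteins are parts of the small subunit processome. Of 10 members 3 had a log2 fold change above 0 and 7 below, with a median of -0.07 and 0 past the test. Utp20, a large scaffold protein, was at 41.0, 42.3, 72.1 and 63.8 CPM in control and 59.9, 61.4, 92.8 and 58.1 with malonyl-CoA, with controls 4 and 5 above 3 malonyl-CoA libraries. Utp20 differed by 0.31 on the log2 scale (SE 0.23; adjusted p = 0.569 in edgeR). Utp14b, a retrogene copy of Utp14a best known from male germ cells, had a log2 fold change of 0.38 (SE 0.27), but its exons overlap those of Acsl3 on the same strand, so its count is uncertain. Utp14a itself ranged from 28.7 to 71.2 CPM in control and from 43.6 to 92.5 with malonyl-CoA, and its log2 fold change of 0.16 became -0.17 without malonyl-CoA 4.

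The early-binding factors Utp4 and Utp15 differed little, from 92.3 ± 8.0 to 87.3 ± 11.0 and from 90.1 ± 9.23 to 87.0 ± 8.23 CPM (mean ± SD, n = 4 each). Their 95% intervals were -0.35 to 0.19 and -0.32 to 0.21. Utp6 and Utp18, which sit in a complex that binds later, had log2 fold changes of -0.10 and -0.12, both with control 5 as the highest library. Without control 5, Utp18 was at 0.07. Utp23, which helps to release a snoRNA from the precursor, was at 34.5, 30.6, 27.0 and 30.8 CPM in control and 26.5, 26.1, 23.0 and 32.0 with malonyl-CoA. Here 3 malonyl-CoA libraries lay below every control (log2 fold change -0.19, edgeR adjusted p = 0.569). Utp3 and Utp11 had log2 fold changes of -0.0012 and -0.09.

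Among the Rrp members 7 of 8 had a log2 fold change above 0, with a median of 0.30, and 0 passed the test. Rrp7a (ENSMUSG00000018040, chromosome 15, 83113433 to 83122801), a small subunit factor, had the smallest unadjusted p of all members in edgeR (adjusted p = 0.515). It was at 65.2, 69.8, 89.5 and 54.2 CPM in control and 91.2, 86.6, 92.3 and 81.6 with malonyl-CoA, and control 4 alone kept the groups from separating. The log2 fold change was 0.34 (SE 0.15), and 0.07 after the correction for GC content and length. Exons of Rrp7a overlap those of another gene on the opposite strand, which the strand setting of the counter, not given in the sources used here, may or may not have kept apart.

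Rrp9, a protein of the U3 snoRNP, was at 27.7, 27.3, 35.7 and 18.1 CPM in control and 34.4, 30.1, 39.4 and 37.4 with malonyl-CoA, lowest in control 5 (log2 fold change 0.38, SE 0.20). Rrp1 and Rrp1b, related nucleolar proteins of large subunit assembly, had the same extreme libraries. Rrp1 was at 62.6, 78.5, 132 and 89.2 CPM in control and 101, 102, 191 and 106 with malonyl-CoA, and Rrp1b at 27.6, 31.9, 58.2 and 40.1 and at 48.3, 47.5, 89.5 and 40.9. In both the lowest library was control 1 and the highest malonyl-CoA 4, with control 4 next to it. Their log2 fold changes of 0.46 and 0.52 (edgeR adjusted p = 0.530 and 0.524) were 0.18 and 0.20 without malonyl-CoA 4. Without control 4 they were 0.71 and 0.77. Rrp8, a nucleolar methyltransferase, was level at 46.2 ± 3.37 and 45.9 ± 3.60 CPM (SD, n = 4 each). Rrp12, Rrp15 and Rrp36 had log2 fold changes of 0.26, 0.14 and 0.21.

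In large subunit assembly, Pes1, Bop1 and Wdr12 form the PeBoW complex, and they did not share a pattern. Bop1 (ENSMUSG00000022557, chromosome 15, 76452989 to 76477277) was at 74.6, 74.3, 83.7 and 37.1 CPM in control and at 96.0, 91.4, 94.8 and 89.9 with malonyl-CoA. It was the member in which every malonyl-CoA library lay above every control, 1 of 42 against 3.21% of all tested genes, and 0 members separated on the lower side. The log2 fold change was 0.46 (SE 0.22, 95% interval -0.02 to 0.95, edgeR adjusted p = 0.515). It rested in part on the low control 5, since it was 0.26 without that library and 0.24 after the correction for GC content and length. Pes1 was at 157, 154, 177 and 139 CPM in control and 172, 157, 186 and 172 with malonyl-CoA, a log2 fold change of 0.13. Wdr12 was at 126, 116, 125 and 134 CPM in control and 118, 106, 111 and 125 with malonyl-CoA, a log2 fold change of -0.12. Whether these 3 differences differ from each other was not tested. Rrs1, which brings the 5S particle into the large subunit, averaged 73.8 ± 7.09 and 78.2 ± 4.79 CPM (SD, n = 4 each; log2 fold change 0.08).

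Of the abundant nucleolar proteins Ncl, Npm1 and Gnl3, 0 passed the test and 1 had a log2 fold change above 0. Ncl (ENSMUSG00000026234, chromosome 1, 86344719 to 86359400) encodes nucleolin, which binds nascent ribosomal RNA. It was at 386, 554, 1048 and 1412 CPM in control and at 694, 785, 1502 and 813 with malonyl-CoA. The controls spanned 3.65-fold, the widest range among controls of the 42 members, and 3 of the malonyl-CoA libraries fell inside it. The log2 fold change was 0.16 (SE 0.40, 95% interval -0.74 to 1.06, edgeR adjusted p = 0.870), and from -0.16 without malonyl-CoA 4 to 0.52 without control 5.

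Npm1 (ENSMUSG00000057113, chromosome 11, 33152287 to 33163206) encodes nucleophosmin, the histone and ribosome chaperone of the nucleolus. It was at 1546, 1526, 1366 and 2110 CPM in control and 1256, 1312, 1147 and 1566 with malonyl-CoA. Here 3 malonyl-CoA libraries lay below every control, and malonyl-CoA 5 lay among them. The log2 fold change of -0.31 was the lowest of the 42 (SE 0.16, 95% interval -0.68 to 0.06, edgeR adjusted p = 0.518), and it was -0.16 without control 5 and -0.11 after the correction for GC content and length. Of its transcript's 50-base windows 40.9% occurred in other annotated genes, 10 pseudogenes among them. Gnl3, or nucleostemin, a GTPase abundant in stem cells, was at 61.5, 73.0, 95.6 and 123 CPM in control and 75.7, 73.5, 114 and 81.9 with malonyl-CoA. Its log2 fold change was -0.04, and 0.17 without control 5.

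**Figure D2:**
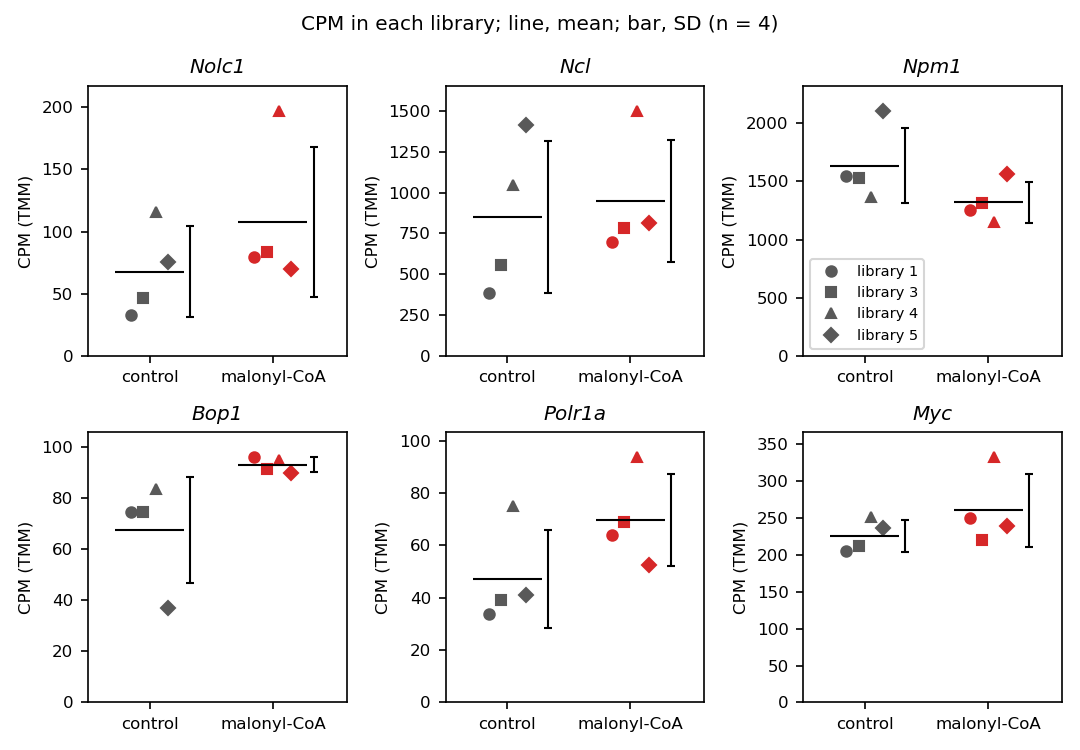
Level (CPM, TMM-scaled) of Nolc1, Ncl, Npm1, Bop1, Polr1a and Myc in each of the 4 control (grey) and 4 malonyl-CoA (red) libraries, with marker shapes for the library numbers, the mean as a line and the SD as a bar. In Bop1 all malonyl-CoA libraries (89.9 to 96.0) lie above all controls (37.1 to 83.7), and in the other 5 genes the groups overlap.

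Variation within the groups followed a recurring order. In 14 of 42 members (33.3%, against 12.9% of all tested genes) control 1 was the lowest library and malonyl-CoA 4 the highest: Dkc1, Myc, Ncl, Nolc1, Nop14, Nop56, Polr1a, Rrp1, Rrp15, Rrp1b, Rrs1, Utp14a, Utp14b and Utp20. In 10 of these 14, control 4 came next to malonyl-CoA 4, as it did in 959 of the 1641 tested genes with the same extremes. Counted singly, malonyl-CoA 4 was the highest library for 19 members (45.2%, against 31.4% of genes), and control 1 the lowest for 18 (42.9%, against 18.6%). All 19 members highest in malonyl-CoA 4 had a log2 fold change above 0, which that library's value favours. Of 15 proliferation genes 2 had the same extremes, and the list's median log2 fold change was 0.02. The proliferation antigen gene Mki67 was at 21.4 CPM in control 1, 129 in control 4 and 536 in malonyl-CoA 4, and the topoisomerase gene Top2a at 298, 703 and 1013, while the 13 others had other extremes, such as the replication helicase gene Mcm4 at 264 to 330 in all 8 libraries. The part of reads in no annotated feature, or of cell division, in this order was not tested.

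**Figure D3:**
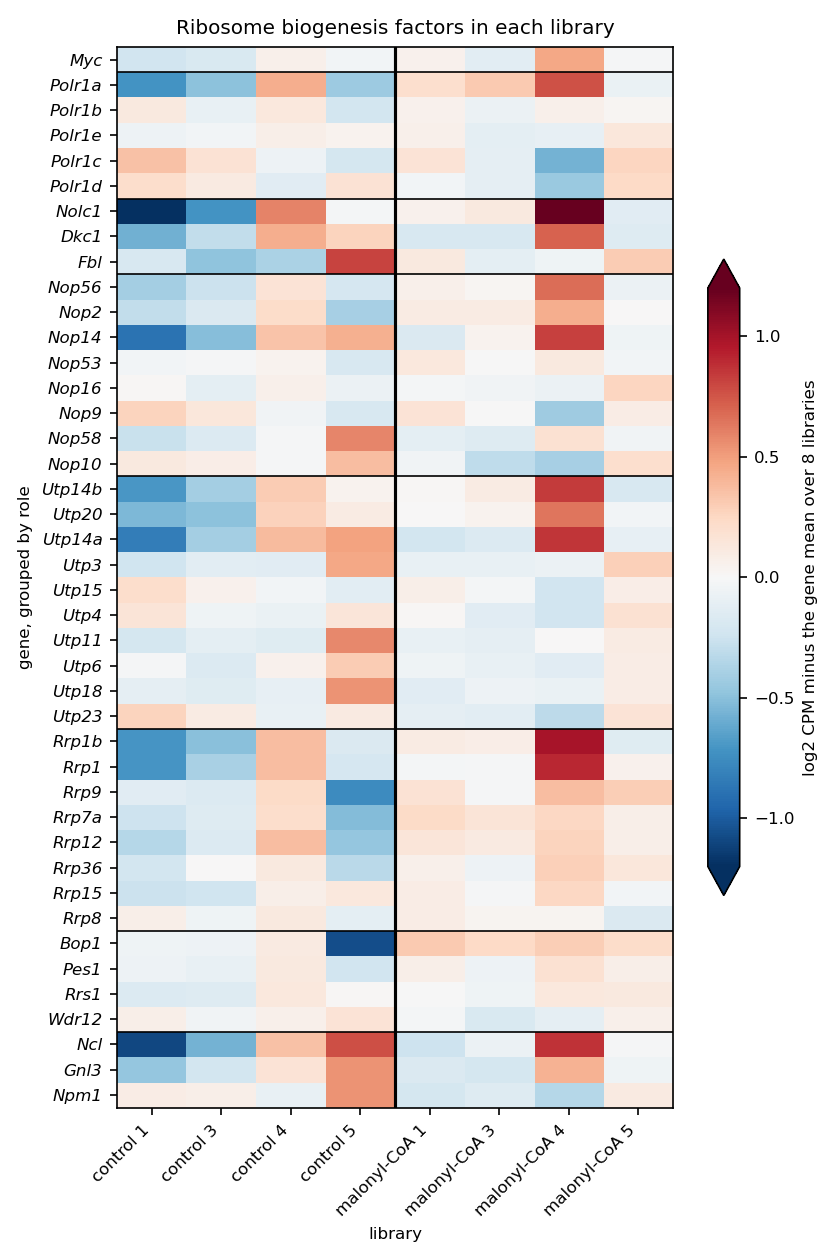
Log2 CPM of the 42 members in each library minus the gene's mean over the 8 libraries, with red above and blue below the mean, grouped by role and ordered by log2 fold change. Nolc1, Ncl, Rrp1, Rrp1b and Nop14 are lowest in control 1 and highest in malonyl-CoA 4, and in control 5 Bop1 and Rrp9 are at their lowest and Fbl at its highest.

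Control 5 was at an extreme in other members, about as often as in genes at large. It was the highest library for 10 (23.8%, against 20.6% of genes), namely Fbl, Gnl3, Nop10, Nop58, Npm1, Utp11, Utp18, Utp3, Utp6 and Wdr12, whose transcripts had a median GC share of 43.7%. It was the lowest for 9 (21.4%, against 22.7% of genes), namely Bop1, Nop2, Nop53, Pes1, Polr1b, Rrp12, Rrp36, Rrp7a and Rrp9, with a median of 55.4%, where all members had 50.6%. Below that median, 18 of 21 members were higher in control 5 than in the mean of controls 1, 3 and 4, and above it 13 of 21 were lower. Over all tested genes the corresponding shares were 76.4% and 75.1%, so the members shared this with genes at large. Fbl was an exception, with a GC share of 56.7% and its highest value in control 5.

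**Figure D4:**
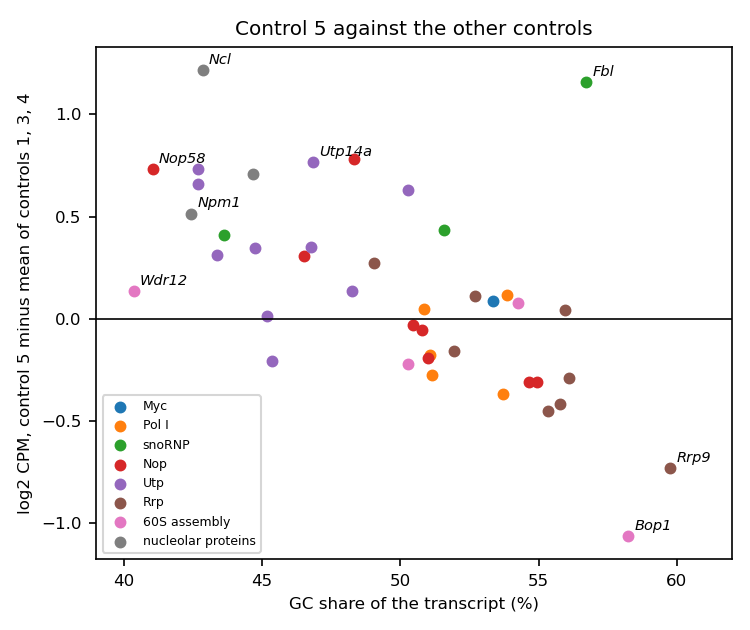
Log2 CPM of each member in control 5 minus its mean over controls 1, 3 and 4, against the GC share of its transcript in percent, coloured by role. GC-poor members such as Ncl, Nop58 and Npm1 lie above 0 and GC-rich members such as Bop1 and Rrp9 below it, with Fbl apart from the others.

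Set side by side, the spread among controls exceeded the difference between groups in all 42 members: the log2 ratio of the highest to the lowest control was larger than the absolute log2 fold change in each (94.0% of all tested genes). The highest control was on median 1.54 times the lowest, and the highest malonyl-CoA library 1.33 times the lowest, against 1.51 and 1.45 over all tested genes. Steady members were Polr1e, Nop16, Wdr12, Rrp8, Utp4 and Nop53, with control ranges of 1.095-fold to 1.18-fold, and the least steady were Ncl, Nolc1, Nop14, Utp14a, Fbl and Bop1, with 2.26-fold to 3.65-fold.

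**Figure D5:**
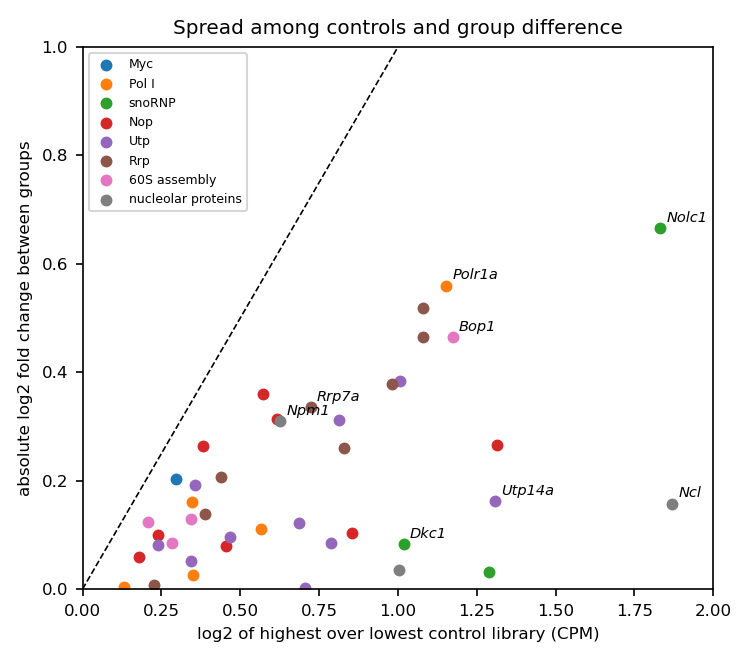
Absolute log2 fold change between the groups against the log2 ratio of the highest to the lowest control library, for the 42 members coloured by role. Every point lies under the dashed line of equality, with Nolc1 and Ncl at the far right.

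Genes of the pathway outside the name rule gave similar counts. Of 118 further factors in 5 lists (small subunit processome, large subunit assembly, polymerase I, snoRNP and the RNA exosome), 116 were tested and 0 passed. Of the 116, 69 had a log2 fold change above 0 (59.5%, against 53.4% of all tested genes), and the median was 0.06. At an unadjusted p under 0.05 in edgeR there were 2 on the higher side and 1 on the lower, where 5.43% of all tested genes were higher and 4.10% lower. The 2 on the higher side were RNA helicases of large subunit assembly. Ddx24 was at 93.0 ± 19.9 and 124 ± 13.2 CPM, and Ddx54 at 68.6 ± 22.3 and 98.8 ± 17.4 CPM (SD, n = 4 each). Their log2 fold changes were 0.42 and 0.52 (edgeR adjusted p = 0.502 and 0.515). The 1 on the lower side was C1d, a cofactor of the nuclear exosome, at 132 ± 16.9 and 100.3 ± 16.7 CPM (log2 fold change -0.40, edgeR adjusted p = 0.502). The list of 37 tested small subunit factors had a median of 0.05, with 22 above 0 and 15 below. Its genes with the smallest unadjusted p in edgeR were Noc4l at 0.30, Wdr46 at 0.41 and the large processome protein Pdcd11 at 0.56. The 43 tested large subunit factors had a median of 0.11. The exosome list had a median of -0.05.

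Some members also carry snoRNA genes within their span, on the same strand. GENCODE places 17 snoRNA genes inside 6 members (Dkc1, Gnl3, Ncl, Nop53, Nop56 and Nop58), but 9 of them had no read in any library and 0 passed the filter. The most reads were 18, for Snord69 inside Gnl3 in malonyl-CoA 4, so the snoRNAs themselves could not be compared. Why so few reads were assigned to them was not tested.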

How the data were processed

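RNA of the 8 cultures was made into stranded total RNA libraries from 350 ng, per the labels' protocols. Each deposited file gives 1 library's counts of reads by Ensembl gene identifier, whole numbers that the authors had not normalized. Tools named in the submitters' processing notes are cutadapt 1.8, STAR 2.5.2b and HTSeq 0.6.1 on GRCm38, but neither the annotation release nor the strand setting appears in the sources used here. Reads with several positions (38.2% to 51.1% of tallied reads) and ambiguous reads (0.715% to 0.891%) were not assigned to genes, so genes with near-identical copies lose reads. More than 20% of the 50-base windows occurred in other annotated genes for 6 members. These were Fbl and Npm1, as given above, Nop56 (37.6%), Nop9 (28.6%), Pes1 (22.6%) and Rrp7a (21.6%). Exons of 15 members, among them Bop1, Polr1a, Nop56 and Rrp7a, overlap a gene on the opposite strand. Counter classes that name no gene were left out of library sizes. Of 48709 identifiers 48349 matched GENCODE M21.

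The test was edgeR 4.0.16 in R 4.3.3: filterByExpr (minimum count 10, total 15), TMM factors, robust glmQLFit without the legacy option, and glmQLFTest on all 12696 genes kept, with no covariate. Standard errors were taken from F (the size of the log2 fold change divided by F's square root), and intervals use the test's degrees of freedom. Group levels are CPM with TMM factors. GC share and length are those of the longest protein-coding transcript, and 50-base windows were compared with all GENCODE transcripts. Promoter windows came from RefSeq (GRCm38.p6). Each member had at least 236 reads in each library, and no interval for counting error alone was computed.

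Alternatives were RLE factors, library size only, no filter, 1 CPM in 4 libraries, DESeq2 1.42.0, limma-voom (limma 3.58.1), a replicate block, a loess correction for GC content and length (span 0.5, trained on genes whose mean log2 CPM exceeded 2), each library left out, control 5 with malonyl-CoA 4 left out, and both libraries numbered 4 left out. On simulated counts for the comparison of malonyl-CoA against control (12696 genes, 200 changed 2-fold), edgeR recovered 109 with 7 false calls, and DESeq2 142 with 40. The members, gene lists and alternatives were chosen with earlier results of these data known. Named are Myc, the polymerase I genes, the singly listed genes and, for Utp, Rrp and Nop, up to 4 per direction by p; other members are given by value only. Of each further list up to 3 genes by p could be named, and Kit, Max, Mcm4, Mki67, Top2a and Ubtf were added after their values were seen.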

Additional observations from a re-analysis of the deposited data

Results flagged for a closer look

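In 15 of the 84 groups of 4 libraries (42 members, control and malonyl-CoA), the highest library stood away from the other 3. Its gap took a larger share of the group's range than Dixon's 95% critical value. Nominally, about 1 of 20 groups passes that value, counting a library at either end. These groups share libraries and are not independent. Malonyl-CoA 4 was that library in 9 of them: Ncl at 1502 CPM (others 694 to 813), Dkc1 at 224 (119 to 123), Nolc1 at 197 (70.1 to 83.2), Rrp1 at 191 (101 to 106), Nop56 at 138 (82.7 to 90.6), Utp20 at 92.8 (58.1 to 61.4), Utp14a at 92.5 (43.6 to 47.6), Rrp1b at 89.5 (40.9 to 48.3) and Nop14 at 87.1 (43.8 to 50.8). Control 5 was that library in 4: Utp3 at 111 CPM (others 67.9 to 73.5), Utp11 at 109 (62.9 to 67.4), Utp18 at 105 (64.9 to 67.3) and Fbl at 48.1 (19.7 to 24.0). Malonyl-CoA 5 was that library in 2: Nop16 at 101 CPM (others 80.7 to 83.3) and Utp3 at 97.8 (75.4 to 76.7). The share of such groups over all tested genes was not computed, so 15 of 84 cannot be read as a trait of the members. Malonyl-CoA 4 was the highest library for 31.4% of all tested genes.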

How the results depend on the processing

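No member passed an adjusted p of 0.05 under any of the 18 alternatives run, while over all genes DESeq2 called 82, the replicate block 172 and the test without a low-count filter 1, against 0. Library numbers were not taken to pair the samples in the main fit, because the labels do not say what they mark. Deviations from the group means correlated at 0.43, 0.43 and 0.75 for numbers 1, 3 and 4, and at 0.052 for number 5. These values do not settle whether the numbers pair the samples. With the replicate block the members' smallest adjusted p in edgeR was 0.0606 (Rrp1), and 10 were higher and 2 lower at an unadjusted p under 0.05, against 0 and 0, while 15% and 10.5% of all tested genes were. Without control 4 the members' counts were 10 and 1 (all genes 10.4% and 7.06%), and without both libraries numbered 4 they were 10 and 0 (all genes 9.41% and 7.41%). The members' median log2 fold change was 0.09 with the block and ran from 0.01 (without control 3) to 0.15 (without control 5). Of 35 named members, 16 changed sign under at least 1 alternative, none of them past the threshold before or after, and the cause was not tested. With library size only, Polr1e was at 0.035, Gnl3 at 0.0095 and Rrp8 at 0.035. After the GC and length correction Polr1b was at -0.091, Fbl at -0.12, Gnl3 at 0.13, Rrs1 at -0.035 and Utp18 at 0.034. Without control 5 and malonyl-CoA 4, Polr1b was at -0.054, Polr1e at 0.038, Dkc1 at -0.10, Gnl3 at 0.0039, Utp6 at 0.026, Utp18 at 0.083, Utp4 at 0.012 and Nop58 at 0.037. Without both libraries numbered 4, Polr1e was at 0.043, Fbl at -0.048, Dkc1 at -0.025, Ncl at -0.033, Utp14a at -0.019 and Rrp8 at 0.011. Leaving out 1 library at a time, the log2 fold change ranged from -0.040 to 0.075 in Polr1b, -0.052 to 0.033 in Polr1e, -0.22 to 0.020 in Polr1c, -0.11 to 0.42 in Fbl, -0.20 to 0.26 in Dkc1, -0.16 to 0.52 in Ncl, -0.20 to 0.17 in Gnl3, -0.17 to 0.36 in Utp14a, -0.19 to 0.072 in Utp18, -0.045 to 0.047 in Rrp8, -0.013 to 0.47 in Nop14, -0.20 to 0.12 in Nop58 and -0.15 to 0.024 in Nop9. Each member had 236 reads or more per library, and depth was not compared with other limits.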
